A study of Mus musculus with 9 samples.

Results

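HOX proteins bind DNA together with partner homeodomain proteins of the TALE class, and 7 genes for such partners were read in haematopoietic stem and progenitor cells of a mouse model of myelodysplastic syndrome. They are Meis1, Meis2 and Meis3 of the MEIS family, Pbx2, Pbx3 and Pbx4 of the PBX family, and Pknox1, also known as Prep1. They were taken by name, in a set chosen with earlier results of these data known. They make up 7 of the 24060 named rows of the count table. All 7 rows were found, and 6 of them passed the filter on low counts, the exception being Meis2. The large differences were those of Meis1 and Pbx3, and they set apart different groups. Meis1 fell 51.65-fold between NHD13 libraries and libraries labelled NHD13/MSI2, whereas Pbx3 rose 25.55-fold between control and NHD13 libraries.

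The cells were LSKs (Lin-Sca1+Kit+), the marrow fraction that holds the haematopoietic stem cells (HSCs) and multipotent progenitors (MPPs). Control marrow came from C57BL/6 mice. NHD13 marrow carried the Vav-Tg-NUP98-HOXD13 transgene, in which the Vav promoter drives the fusion of the nucleoporin NUP98 with the homeodomain of HOXD13 in blood cells. NHD13/MSI2 marrow came from the same transgene crossed with KH2-Col1A1-tet-on-MSI2/ROSA26-rTTA, which expresses the RNA-binding protein MSI2 when doxycycline is given. All marrow was transplanted into lethally irradiated congenic CD45.1 recipients, which then received doxycycline for 3 months, and donor-derived CD45.2 LSKs were sorted. The labels give an age of 4 months for every sample. The paper counts these months from transplantation, so the labels do not give the age of the donor cells. There were 3 control, 2 NHD13 and 4 NHD13/MSI2 libraries. The sources used here do not say whether each library came from its own mouse, so p-values measure the spread between these libraries, which may be technical.

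Each library held 19242153 to 23013493 counts on named genes, so that 3 counts, taken here as the limit of detection, correspond to 0.130 to 0.156 counts scaled to the library size (CPM) before normalization. Several libraries stood apart or did not follow their labels. Msi2 read 223, 316 and 266 CPM in control, 139 and 111 CPM in NHD13, and 88.0, 77.1, 82.8 and 241 CPM in the libraries labelled NHD13/MSI2, so these were not higher than the controls. Whether reads of the transgene were counted on Msi2 was not tested, and these libraries are named below by their label. Hoxd13 had 0 counts in the controls and 0.65 to 1.13 CPM in the other libraries. NHD13/MSI2 replicate 4 differed from the other 3 of its group by a chi-square of 398 to 426 per gene, against 18.8 to 32.4 among those 3. Xist, the RNA of the inactive X chromosome, read 888 and 866 CPM in control replicates 1 and 3. Every other library read at most 2.33 CPM. Eif2s3y, a gene of the Y chromosome, read 0.123 and 0.0400 CPM in those controls and 122 to 180 CPM in every other library. Control replicates 1 and 3 thus read as female and every other library as male. The part of sex in the comparisons with control was not tested. The names of control replicates 2 and 3, but not of control replicate 1, carry the words MPP and HSC. Whether the controls were the same sorted fraction is thus not settled by the names. The part of such a difference in the comparisons with control was not tested.

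PBX proteins join HOX proteins on DNA and sharpen their choice of site. MEIS proteins and PKNOX1 bind PBX in turn, which keeps PBX in the nucleus and stabilizes the complex. In blood, Meis1 is needed to maintain HSCs and cooperates with Hoxa9 in leukaemia, and Pbx3 is a further partner of these factors in myeloid leukaemia. The NUP98-HOXD13 fusion retains the HOX homeodomain, so these partner genes are of interest in NHD13 cells. Values are given as CPM normalized by TMM, a scaling for library composition, and a gene was called when its Benjamini-Hochberg adjusted p in edgeR's quasi-likelihood test over all 13355 genes tested was under 0.01.

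Meis1 was the gene whose level separated the libraries labelled NHD13/MSI2 from both other groups. Its levels were 1015, 705 and 863 CPM in control, 523 and 158 CPM in NHD13, and 6.41, 4.24, 4.16 and 11.7 CPM in the libraries labelled NHD13/MSI2. The 3 groups did not overlap, and the highest of the last 4 libraries lay below the lower NHD13 library by more than a factor of 10. Control replicate 2, which differs from the other controls in Xist, also lay above both NHD13 libraries. The group means were 860.6 ± 155 CPM (SD, n = 3), 340.2 ± 258 CPM (n = 2) and 6.62 ± 3.53 CPM (n = 4). Against NHD13, the log2 fold change in the libraries labelled NHD13/MSI2 was −5.69 (SE 0.53, 95% interval −6.89 to −4.49, edgeR adjusted p = 0.000700). Against control, it was −7.03 (SE 0.55, edgeR adjusted p = 6.00e-05), a 130.7-fold lower level. The low libraries still held 85 to 180 counts each, well above the limit of detection.

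NHD13 libraries lay between the others for Meis1, but their difference from control was not called. The log2 fold change was −1.34 (SE 0.55, edgeR adjusted p = 0.3228), with both NHD13 libraries below all 3 controls. The pair of NHD13 libraries differed 3.31-fold from each other, and this spread moved the size of the result. The log2 fold change of labelled NHD13/MSI2 over NHD13 became −4.55 when NHD13 replicate 1 was left out (edgeR adjusted p = 0.00234) and −6.27 when NHD13 replicate 2 was left out (edgeR adjusted p = 0.000446). The same omissions gave −2.45 and −0.73 for NHD13 over control, neither of them called.

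The Meis1 gene lies on the minus strand of chromosome 11 from 18879817 to 19018985 (GRCm38, GENCODE M21). Of its 10532 exonic bases, 896 overlap the antisense gene Gm16140 and 1029 overlap Gm37818 on the same strand. Whether strand was used in counting is not given in the sources used here, so reads of Meis1 and of its antisense partner cannot be told apart in that stretch.

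Its close relatives Meis2 and Meis3 had low counts, from 0 to 57 in any library. Meis2, best known from limb, heart and neural crest development, lies on chromosome 2 from 115863064 to 116065839, minus strand. It had 8, 1 and 23 counts in the control libraries and 0 counts in all 6 other libraries. With these set at 3 counts per library, its level was at least 2.72-fold lower in the libraries labelled NHD13/MSI2 and at least 3.02-fold lower in NHD13 than in control. These bounds rest on control replicate 3, without which they are 1.18 and 1.31. No test was made, because the gene did not pass the filter.

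Meis3, known from the hindbrain and from pancreatic beta cells, is a gene of chromosome 7 (16175090 to 16186504, plus strand). It had 7, 13 and 40 counts in control, 57 and 0 in NHD13, and 0, 2, 3 and 0 in the libraries labelled NHD13/MSI2. The value of NHD13 replicate 1 alone exceeded every control. At the limit of detection the level in the libraries labelled NHD13/MSI2 was at least 8.25-fold lower than in NHD13 and at least 5.25-fold lower than in control, with edgeR adjusted p-values of 0.1418 and 0.1227. Neither was called, and without NHD13 replicate 1 the fitted log2 fold change against NHD13 turned from −4.27 to 3.53. All libraries in that comparison had at most 3 counts, so 3.53 is a fit at the limit of detection and does not measure a rise.

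**Figure D1:**
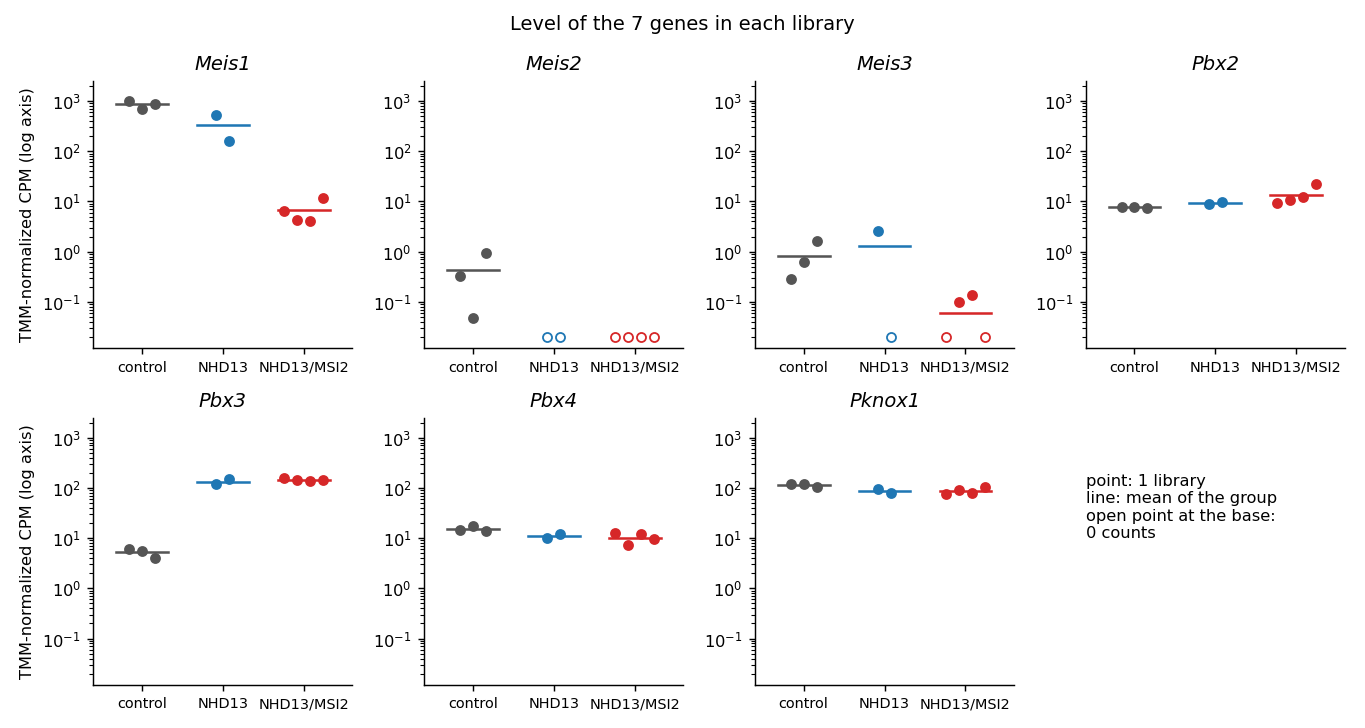
TMM-normalized CPM (log axis) of the 7 genes, 1 panel per gene, with a point for each of the 3 control, 2 NHD13 and 4 NHD13/MSI2 libraries by label and a bar for each group mean. Meis1 drops from a mean of 340.2 CPM in NHD13 to 6.62 CPM in the libraries labelled NHD13/MSI2, while Pbx3 climbs from 5.24 CPM in control to 134 CPM in NHD13.

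Pbx3 showed the opposite order and a different step. This PBX family member, whose loss in mice impairs the control of breathing at birth, lies on the minus strand of chromosome 2 from 34171457 to 34373142. Its levels were 6.17, 5.55 and 4.00 CPM in control, 119 and 149 CPM in NHD13, and 156, 143, 137 and 141 CPM in the libraries labelled NHD13/MSI2. All 6 libraries with the transgenes lay above every control by a wide margin, and the NHD13 values enclosed 3 of the 4 labelled NHD13/MSI2 values. The means were 5.24 ± 1.12 CPM (n = 3), 134 ± 21.6 CPM (n = 2) and 144.4 ± 7.97 CPM (n = 4).

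Against control, the log2 fold change of Pbx3 was 4.68 in NHD13 (SE 0.21, edgeR adjusted p = 1.41e-05) and 4.78 in the libraries labelled NHD13/MSI2 (SE 0.20, edgeR adjusted p = 4.56e-06). Both comparisons use the same 3 control libraries. Between the libraries labelled NHD13/MSI2 and NHD13 it was 0.11 (SE 0.19, edgeR adjusted p = 0.80), with a 95% interval of −0.31 to 0.52. These libraries are thus compatible with a change of either sign within that interval.

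The reading of Pbx3 depends on the alignment of names and counts. In the deposited table, each name later in the alphabet than the March genes sits 2 rows above its own counts, and these names were moved down. With the names left as deposited, the row named Pbx3 gave log2 fold changes of −4.46 for labelled NHD13/MSI2 over control and 0.054 for NHD13 over control, and the row named Meis3 held the counts that are given here as Meis1. A check that did not use the groups supported the move. Of 12 widely expressed genes such as Npm1, Ppia and Ywhaz, 11 read at least 100 CPM after a move of 2 rows, against 1 with the names as deposited and at most 4 after a move of 1, 3 or 4 rows.

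**Figure D2:**
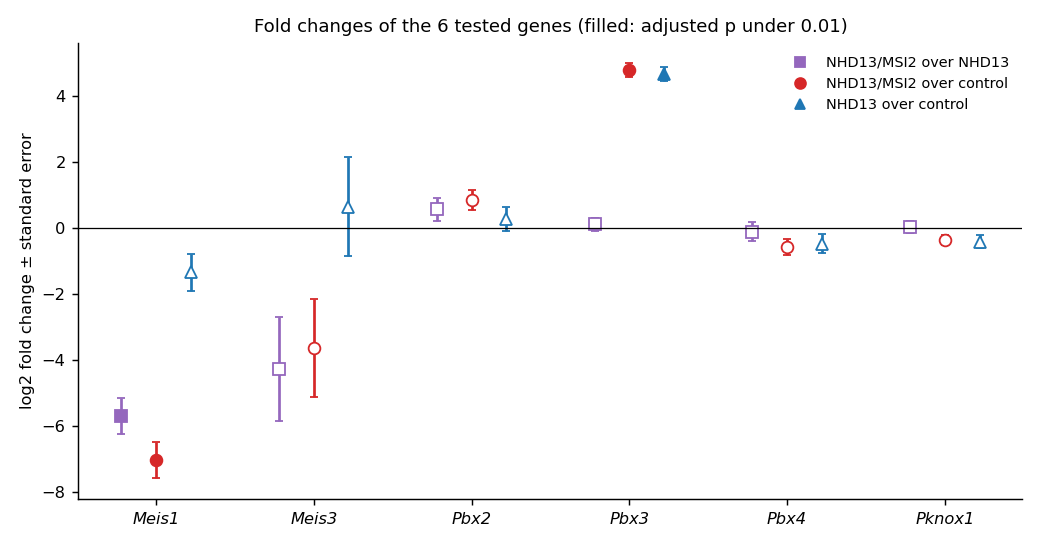
Log2 fold change with its standard error for the 6 genes tested, in the comparisons of NHD13/MSI2 (by label) with NHD13 and with control and of NHD13 with control. Filled symbols mark an edgeR adjusted p under 0.01, which Meis1 reached in both comparisons with NHD13/MSI2 (−5.69 and −7.03) and Pbx3 in both comparisons with control (4.78 and 4.68).

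Pbx2 and Pbx4 were expressed at modest levels in every library and were not called in any comparison. Pbx2 is broadly expressed, and mice without it develop normally. It lies on chromosome 17 from 34591266 to 34597400, plus strand. Its levels were 7.61, 7.78 and 7.48 CPM in control, 8.83 and 9.68 CPM in NHD13, and 9.41, 10.9, 12.4 and 22.2 CPM in the libraries labelled NHD13/MSI2. The highest value belonged to NHD13/MSI2 replicate 4, the library that stands apart, yet the other 3 also exceeded every control. The log2 fold change of labelled NHD13/MSI2 over control was 0.85 (SE 0.31, edgeR adjusted p = 0.08685), and it was 0.57 over NHD13 (SE 0.35, edgeR adjusted p = 0.4048). Of the 3640 exonic bases of Pbx2, 227 overlap Gpsm3 on the same strand.

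Pbx4 lies on chromosome 8 from 69832491 to 69872292, plus strand. Its levels were 14.3, 17.7 and 13.8 CPM in control, 9.89 and 12.2 CPM in NHD13, and 12.5, 7.23, 11.9 and 9.41 CPM in the libraries labelled NHD13/MSI2. All 6 libraries with transgenes read below the controls. Neither comparison with control was called, with log2 fold changes of −0.57 (SE 0.24, edgeR adjusted p = 0.1343) for labelled NHD13/MSI2 and −0.47 (SE 0.30, edgeR adjusted p = 0.6003) for NHD13. Between those groups it was −0.11, with a 95% interval of −0.73 to 0.52.

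Pknox1 varied little over the 9 libraries, between 76.0 and 122 CPM, and was not called in any comparison. Its protein competes with MEIS for PBX, and mice with little of it have defects of blood stem cells. The gene lies on chromosome 17 from 31564734 to 31607693, plus strand, and 155 of its 6933 exonic bases overlap the antisense gene AC166172.4. Its levels were 117, 122 and 102 CPM in control, 93.9 and 77.6 CPM in NHD13, and 76.0, 90.7, 80.6 and 105 CPM in the libraries labelled NHD13/MSI2. The last of these exceeded the lowest control, so those groups overlapped. The log2 fold changes against control were −0.37 (SE 0.15, edgeR adjusted p = 0.1228) for labelled NHD13/MSI2 and −0.41 (SE 0.18, edgeR adjusted p = 0.3812) for NHD13. Against NHD13, the value for labelled NHD13/MSI2 was 0.038, with a 95% interval of −0.35 to 0.43.

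Counted over the set, 1 of the 6 tested genes (Meis1) was lower in labelled NHD13/MSI2 than in NHD13, where 3.17% of all tested genes were called in either direction. Against control, 1 gene was higher (Pbx3) and 1 lower (Meis1) in labelled NHD13/MSI2, beside 11.0% of all genes called. In NHD13 against control, 1 gene was higher (Pbx3), beside 1.03% of all genes. DESeq2 called 1, 2 and 1 genes of the set in these comparisons, beside 9.63%, 19.4% and 4.45% of all genes, and edgeR at a threshold of 0.05 called as many, beside 8.81%, 20.6% and 2.89%. The median log2 fold changes of the 6 genes were −0.033, −0.47 and −0.064 in these comparisons, and those of all genes were −0.028, −0.011 and 0.017. Groups that did not overlap, as for Meis1 in all 3 comparisons, were seen for 29.9%, 35.7% and 37.4% of all genes. The comparisons share libraries in pairs and are given side by side for that reason.

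To compare levels between the genes, CPM were divided by the length of the union of exons in kb. In control LSKs, Meis1 was the most abundant of the set at 81.7 ± 14.7 CPM per kb, followed by Pknox1 at 16.4, Pbx4 at 6.88, Pbx2 at 2.09, Pbx3 at 0.858, Meis3 at 0.263 and Meis2 at 0.0358 CPM per kb. No neighbours in this order overlapped between libraries, except Meis3 and Meis2 when the longest transcript was taken as the length. In NHD13, Meis1 at 32.3 ± 24.5 and Pbx3 at 21.9 ± 3.54 CPM per kb led the order and overlapped, so they were not separable. With the longest transcript as the length, their order turned to Pbx3 at 46.9 and Meis1 at 45.04 CPM per kb.

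In the libraries labelled NHD13/MSI2, Pbx3 led at 23.6 ± 1.31 CPM per kb, followed by Pknox1 at 12.7, Pbx4 at 4.62 and Pbx2 at 3.77 CPM per kb, of which Pbx4 and Pbx2 overlapped. Meis1 came next at 0.629 ± 0.335 CPM per kb. Meis1 made up 75.48% of the summed level per kb in control, 43.34% in NHD13 and 1.39% in labelled NHD13/MSI2, and Pbx3 made up 0.793%, 29.43% and 52.09%. The sum itself was 123, 95.7 and 106 CPM per kb in control, 90.3 and 58.7 in NHD13, and 45.3, 43.3, 43.3 and 49.7 in the libraries labelled NHD13/MSI2. The ratio of Meis1 to Pbx3 per kb, computed within each library, was 95.3, 73.6 and 125 in control, 2.55 and 0.613 in NHD13, and 0.0239, 0.0171, 0.0176 and 0.0480 in the libraries labelled NHD13/MSI2. The groups did not overlap in this ratio, and NHD13 replicate 2 was the library of its group with the lower Meis1 and the higher Pbx3.

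**Figure D3:**
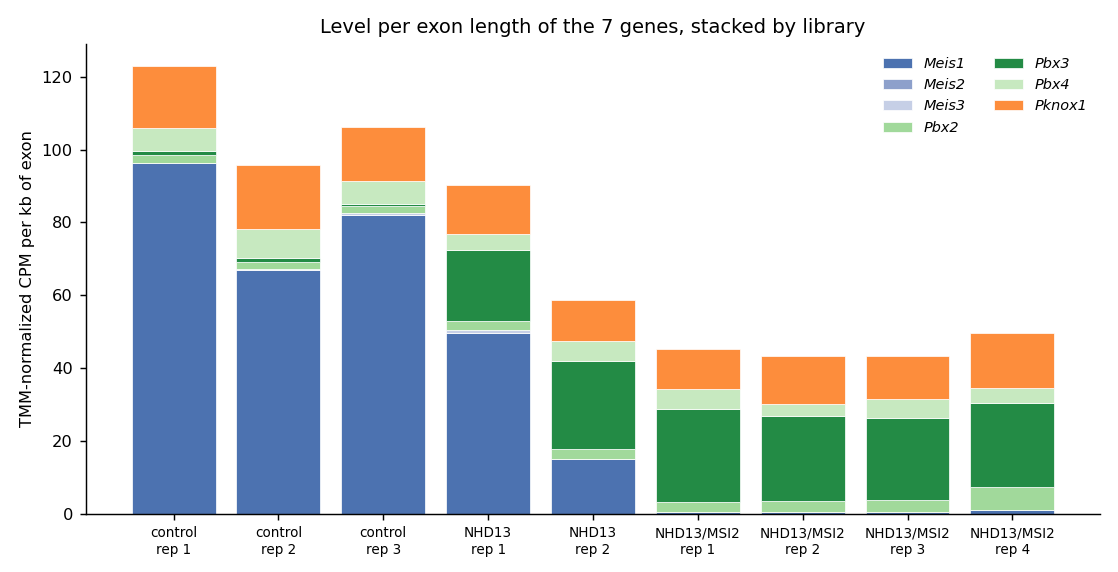
TMM-normalized CPM per kb of exon of the 7 genes, stacked for each of the 9 libraries named by group label and replicate. The tall Meis1 segment of the controls (69.89% to 78.4% of the bar) shrinks in NHD13 and is nearly absent in the libraries labelled NHD13/MSI2, where Pbx3 takes 46.51% to 56.31%.

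These levels were set beside markers of the sorted population and of other blood cells. In bulk RNA, fewer cells of a type and less RNA per cell cannot be told apart. All 4 LSK markers were present in every library, Kit at 908.2 to 2254 CPM and Ly6a (Sca1) at 48.3 to 375 CPM. Their summed level was 4094 to 4510 CPM in control, 2169 and 2497 CPM in NHD13, and 2004 to 2752 CPM in the libraries labelled NHD13/MSI2. Against that sum, Meis1 stood at 0.172 to 0.225 in control, 0.209 and 0.0727 in NHD13, and 0.00151 to 0.00471 in the libraries labelled NHD13/MSI2. The members of the sum differed in direction between the last 2 groups. Ly6a averaged 58.7 CPM in NHD13 and 260 CPM in labelled NHD13/MSI2, and Cd34 459 and 763 CPM. Kit averaged 1526 and 1141 CPM and Flt3 289 and 152 CPM in the same order. Of the 4, 0 were called in this comparison, beside 3.17% of all genes.

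HSC markers in sum were, like Meis1, highest in control and lowest in the libraries labelled NHD13/MSI2. The summed level of Procr, Fgd5, Hlf, Mllt3, Ctnnal1 and Slamf1 was 560, 410 and 656 CPM in control, 242 and 117 CPM in NHD13, and 13.1, 16.7, 29.0 and 21.3 CPM in the libraries labelled NHD13/MSI2. Of these 6 genes, 4 fell against NHD13 and 5 fell against control in the libraries labelled NHD13/MSI2, beside 2.58% and 6.55% of all genes called lower, and 1 (Hlf) fell in NHD13 against control, beside 0.21%. In NHD13 over control, Procr, Hlf and Mllt3 had log2 fold changes of −0.56, −4.33 and −0.61. Fgd5, Ctnnal1 and Slamf1 had 0.12, 0.55 and 0.76 there, and the median of the list was −0.22. Fgd5, which marks HSCs, read 12.6 and 9.09 CPM in NHD13 and at most 0.130 CPM in the libraries labelled NHD13/MSI2. The ratio of Meis1 to the HSC sum was 1.81, 1.72 and 1.32 in control, 2.16 and 1.35 in NHD13, and 0.490, 0.254, 0.144 and 0.549 in the libraries labelled NHD13/MSI2. In control this sum was mostly Hlf, at a mean of 364.3 CPM, against 18.05 CPM in NHD13. In the libraries labelled NHD13/MSI2 it was mostly Procr and Ctnnal1, at means of 9.10 and 7.37 CPM. Single markers fell by as much as Meis1 or more, Hlf 58.2-fold and Slamf1 56.2-fold over NHD13 beside 51.65-fold for Meis1, so Meis1 was lower relative to some of these markers and not to others. The part of a changed share of HSCs in the Meis1 result was not tested.

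**Figure D4:**
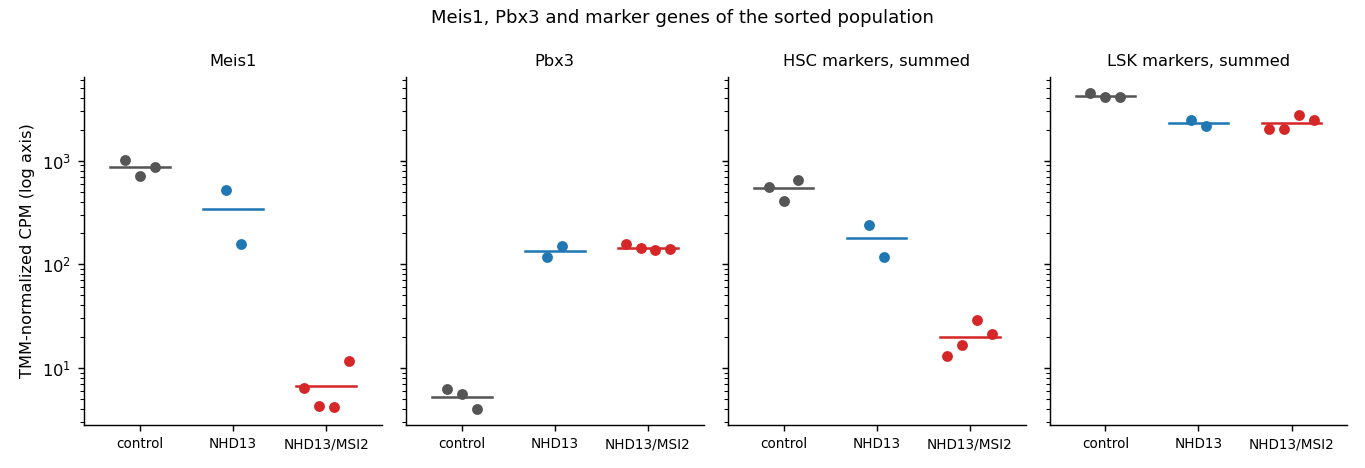
TMM-normalized CPM (log axis) of Meis1, of Pbx3 and of the summed HSC and LSK markers, with a point for each library by group label. The HSC sum falls from 116.5 and 241.6 CPM in NHD13 to 13.09 to 29 CPM in the libraries labelled NHD13/MSI2, beside the fall of Meis1. The LSK sum stays between 2004 and 2752 CPM in both groups, although the means of Ly6a and Cd34 are higher and those of Kit and Flt3 lower in the latter.

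Markers of other lineages also differed between the groups, and their part in the results of Meis1 and Pbx3 was not tested. The summed level of 6 megakaryocyte markers, a lineage in which Meis1 is also expressed, was 81.4 to 225 CPM in control, 87.0 and 707 CPM in NHD13, and 16.4 to 46.5 CPM in the libraries labelled NHD13/MSI2. NHD13 replicate 1 was the library with both the high megakaryocyte sum and the higher Meis1 of its group. Among 6 neutrophil lineage markers, Mpo rose from a mean of 1549 CPM in control to 10790 CPM in the libraries labelled NHD13/MSI2 (log2 fold change 2.80, edgeR adjusted p = 0.000254), whereas the other 5 had negative log2 fold changes, of −0.39 to −1.89, none of them called, and the median of the list was −1.75. The sum over the 6 followed Mpo, at 2143 to 3976 CPM in control, 3131 and 4375 CPM in NHD13, and 8394 to 14330 CPM in the libraries labelled NHD13/MSI2. The 2 macrophage markers found of 3, Csf1r and Mertk, summed to 9.44 to 17.6 CPM in control, 97.0 and 129 CPM in NHD13, and 283 to 479 CPM in the libraries labelled NHD13/MSI2. This sum was, like Pbx3, lowest in control. It was mostly Csf1r, at means of 11.2, 108 and 356 CPM. Mertk averaged 0.997, 4.37 and 6.10 CPM, and its control and NHD13 libraries overlapped. The 5 B-cell markers summed to 45.7 to 56.8, 81.9 to 127 and 262 to 447 CPM in these groups. The 4 T-cell markers summed to 36.4 to 44.5, 192 to 194 and 49.3 to 83.8 CPM, nearly all of it Lck, while Cd3e, Cd3g and Cd3d had at most 15 counts in any library and did not pass the filter. The 3 stromal markers stayed at or below 25.1 CPM in sum in every library.

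The HOX genes are the partners of this set, and 22 of 39 passed the filter. In NHD13 over control, 7 rose and 0 fell, beside 0.824% of all genes higher. In labelled NHD13/MSI2 over control, 10 rose and 2 fell, beside 4.49% of all genes higher and 6.55% lower. Among the 10 was Hoxd13, whose homeodomain is part of the transgene and which served above as a label check. Its rise is thus not a result separate from the genotype. Whether its reads came from the transgene was not tested. In labelled NHD13/MSI2 over NHD13, 0 rose and 1 fell, beside 0.584% higher and 2.58% lower, and DESeq2 called 0 higher and 2 lower. The median log2 fold changes of the tested HOX genes, Hoxd13 included, were 2.19, 1.35 and −0.45 in these comparisons. With genes at the limit of detection set at their bound, they were 2.19, 1.399 and −0.51.

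Hoxc6, Hoxc5, Hoxc4 and Hoxa7 were, like Pbx3, higher than control in both other groups. Hoxc6 had 0 counts in the controls, 12.9 and 31.7 CPM in NHD13, and 6.75 to 13.0 CPM in the libraries labelled NHD13/MSI2. It was at least 174-fold higher in NHD13 than in control (edgeR adjusted p = 0.000829) and at least 77.4-fold higher in labelled NHD13/MSI2 (edgeR adjusted p = 0.000243). Hoxc5 averaged 0.140, 41.3 and 25.8 CPM and Hoxc4 averaged 0.332, 30.6 and 21.6 CPM in control, NHD13 and labelled NHD13/MSI2, and both were called higher in both groups than in control. Hoxa7, in another cluster, averaged 17.9, 116 and 164 CPM, with log2 fold changes over control of 2.70 (SE 0.32, edgeR adjusted p = 0.00205) and 3.20 (SE 0.30, edgeR adjusted p = 0.000166). The call of Hoxa7 in NHD13 was lost without any 1 of the controls (edgeR adjusted p = 0.0161 to 0.0171), and those of Hoxa7 and Hoxc6 in NHD13 were lost with only the groups compared.

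Hoxc8 was lower in the libraries labelled NHD13/MSI2 than in NHD13, and Hoxa10 was lower there than in control. Hoxc8 read 0, 0.0475 and 0.0800 CPM in control, 13.2 and 65.1 CPM in NHD13, and 0.517, 0.598, 1.86 and 0.714 CPM in the libraries labelled NHD13/MSI2. It was thus raised at least 305-fold in NHD13 (edgeR adjusted p = 0.00166) and fell by 5.38 on the log2 scale in labelled NHD13/MSI2 over NHD13 (SE 0.71, edgeR adjusted p = 0.00290). It remained at least 7.18-fold above control there, which was not called (edgeR adjusted p = 0.01549). The fall over NHD13 was not called without NHD13 replicate 2 or NHD13/MSI2 replicate 1 or 2 (edgeR adjusted p = 0.0103 to 0.0204) or with only the groups compared, and the rise in NHD13 was not called without any 1 of the controls (0.01197 to 0.0137). Hoxa10, known for its role in stem and myeloid progenitor cells, read 25.5, 29.6 and 33.4 CPM in control, 22.9 and 3.75 CPM in NHD13, and 1.29, 2.29, 1.403 and 1.69 CPM in the libraries labelled NHD13/MSI2. Its log2 fold change was −4.14 over control (SE 0.54, edgeR adjusted p = 0.000835) and −2.99 over NHD13 (SE 0.55, edgeR adjusted p = 0.01127), the latter not called, although it was without NHD13 replicate 2 (edgeR adjusted p = 0.000631). As for Meis1, NHD13 replicate 2 was the lower of its pair.

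A list of 11 other genes held TALE genes such as Tgif1, Tgif2, Mkx and the Irx family, and Pbxip1, whose protein binds PBX but has no homeodomain. Of these, 3 passed the filter, namely Tgif1, Tgif2 and Pbxip1. Of the 3, 0 were called in any of the 3 comparisons by edgeR or by DESeq2. The shares of all genes called, for labelled NHD13/MSI2 over NHD13, over control and for NHD13 over control, were 3.17%, 11.0% and 1.03% by edgeR. By DESeq2 they were 9.63%, 19.4% and 4.45%. An unadjusted edgeR p under 0.05 was reached by 0 of the 3, and by 2904, 4380 and 1802 of all 13355 genes. With 3 genes tested, counts of 0 say little about them. Their median log2 fold changes were 0.14 for labelled NHD13/MSI2 over NHD13, 0.14 over control and 0.0053 for NHD13 over control.

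Of 13 genes linked to HOXA9 or MEIS1 in blood cells, all tested, 1 fell in labelled NHD13/MSI2 over NHD13, 3 fell in labelled NHD13/MSI2 over control and 2 fell in NHD13 over control, and 0 rose in edgeR. The shares of all genes called lower were 2.58%, 6.55% and 0.21%. DESeq2 called 0, 1 and 0 of them higher. The median log2 fold changes were −0.0018, −0.75 and −0.64. Hlf, a transcription factor of HSCs that also belongs to the HSC markers above, fell at each step. It read 332, 284 and 477 CPM in control, 26.1 and 10.03 CPM in NHD13, and 0.155, 0.0499, 0.317 and 0.779 CPM in the libraries labelled NHD13/MSI2. Its log2 fold change was −4.33 in NHD13 over control (SE 0.62, edgeR adjusted p = 0.00631) and −5.86 in labelled NHD13/MSI2 over NHD13 (SE 0.60, edgeR adjusted p = 0.00109). The call in NHD13 over control was lost without any 1 of the controls, either NHD13 library, or NHD13/MSI2 replicate 1 or 3 (edgeR adjusted p = 0.0119 to 0.0434), and both calls were lost with only the groups compared.

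Flt3, a receptor of early progenitors and a known target of MEIS1, read 581 to 674 CPM in control, 133 and 445 CPM in NHD13, and 104 to 206 CPM in the libraries labelled NHD13/MSI2. It fell by 2.01 on the log2 scale in labelled NHD13/MSI2 over control (SE 0.37, edgeR adjusted p = 0.00497) and was not called against NHD13. Cd34, a surface antigen of progenitors, averaged 1599, 459 and 763 CPM, and fell by 1.80 in NHD13 and by 1.07 in labelled NHD13/MSI2 over control on the log2 scale (edgeR adjusted p = 0.00572 and 0.00457). Without any 1 of the controls or NHD13/MSI2 replicate 1 or 2, Flt3 and Cd34 were not called in labelled NHD13/MSI2 over control (edgeR adjusted p = 0.0150 to 0.0217), and Cd34 in NHD13 over control was not called without any 1 of the controls, either NHD13 library, or NHD13/MSI2 replicate 2 or 3 (0.0115 to 0.0358). The other 10 genes of this list were not called in any comparison.

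Genes with a course most like each of the set were sought by Pearson's r of log2 CPM over the 9 libraries, among 10972 genes with a mean of at least 50 counts. The 9 libraries share the 3 groups, so r reflects group differences as well as libraries and is given without a p. For Meis1 the nearest were Fah (r = 0.995), the last enzyme of tyrosine breakdown, Nap1l3 (r = 0.993) and Aqp9 (r = 0.993), a channel for water and glycerol, and 182 genes exceeded 0.95. Aqp9 averaged 91.0, 56.3 and 3.80 CPM in control, NHD13 and labelled NHD13/MSI2, a step placed as in Meis1. For Pbx3 the nearest were Zfpm2 (r = 0.997), a cofactor of GATA factors, F2rl1 (r = 0.996), a protease-activated receptor, and Lin28b (r = 0.995), an RNA-binding protein of foetal blood progenitors, and 79 genes exceeded 0.95. Zfpm2 averaged 0.0158, 58.5 and 70.6 CPM, and Lin28b had 0 CPM in control, 84.2 in NHD13 and 64.0 in labelled NHD13/MSI2.

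Pbx2 went with Celf2 (r = 0.993), Capza1 (r = 0.987) and Rgl2 (r = 0.987), of which Celf2 averaged 508, 572 and 732 CPM in the same group order, and 73 genes exceeded 0.95. The remaining genes had few close neighbours. Pknox1 was nearest to Cpne2 (r = 0.972), Btrc (r = 0.946) and Gclm (r = 0.940), and Pbx4 to Frmd6 (r = 0.932), Sdr39u1 (r = 0.923) and Slc16a11 (r = 0.921). For Meis3, whose counts were low, the nearest were Gabpa (r = 0.957), Slc35d3 (r = 0.949) and Stat4 (r = 0.931), and at such low counts these values say little.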

How the data were processed

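RNA-seq was done on sorted LSKs in 3 control, 2 NHD13 and 4 NHD13/MSI2 libraries. The authors deposited whole-number read counts per gene symbol, without normalization or pooling. The submitters' processing notes name STAR, HTSeq, DESeq and the mm9 build, without versions, and strandedness is not given in the sources used here. The table had 24073 rows and 24071 names, because 11 date-like names stood for 13 genes whose symbols begin with March or Marc. The 11942 names after them were moved down by 2 rows, and 13 rows (0.0253% to 0.0323% of a library) were left unnamed. The 2 blank rows at the end, with 0.00305% to 0.00816% of a library, received names in the move.

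Counts were fitted in R 4.3.3 with edgeR 4.0.16 (filterByExpr by group, TMM factors of 0.785 to 1.09, glmQLFit and glmQLFTest) on all 9 libraries, which gives the NHD13 pair the spread of all groups. Standard errors were taken as the absolute log2 fold change over the square root of F. Where every library of a group had at most 3 counts, folds were computed against that limit in each library and given as bounds, which cover counting error only. Gene positions and exon lengths are from GENCODE M21 on GRCm38, not the authors' build. Genes named were all 7 genes, up to 6 called genes of each list by size of change in NHD13/MSI2 over NHD13, the 3 genes most correlated with each, and Msi2 and Hoxd13 as label checks. Xist and Eif2s3y were added after values were known. The set and the lists were chosen with earlier results of these data known.

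On counts simulated for NHD13/MSI2 over NHD13 with 13062 genes tested, the test called 57 of 100 genes changed by 2 on the log2 scale, 89 of 100 changed by 4, and 3 of 12862 unchanged genes. Alternatives were DESeq2 1.42.0, RLE factors, no factors for levels, other filters, a robust prior, a threshold of 0.05, only the groups compared, the replicate number as a block, names as deposited and each library left out. Not every Pbx gene is in the set.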

Additional observations from a re-analysis of the deposited data

Results flagged for a closer look

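Msi2 in NHD13/MSI2 replicate 4 read 241.4 CPM, whereas the other 3 libraries with that label read 77.1 to 88.03 CPM. It was marked because the gap to its nearest neighbour, divided by the range of the group, was 0.9335, past Dixon's critical value for 4 libraries, which chance alone passes in a small share of groups. The same library had the highest Meis1 (11.7 CPM) and the highest Pbx2 (22.2 CPM) of its group, and neither of these passed the limit.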

How the results depend on the processing

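With the names moved by 2 rows, Meis1 stayed called and lower in labelled NHD13/MSI2 under all 17 alternatives, over NHD13 (edgeR or DESeq2 adjusted p 2.65e-24 to 0.00977) and over control (1.72e-49 to 0.000463). Pbx3 stayed called and higher over control in all 17, in labelled NHD13/MSI2 (4.97e-137 to 9.55e-05) and in NHD13 (1.44e-94 to 0.00128). In the 15 to 17 alternatives, Meis3, Pbx2, Pbx4 and Pknox1 were not called at an adjusted p under 0.01.

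Names as deposited gave 2 genes of the set called for labelled NHD13/MSI2 over NHD13 and 0 for NHD13 over control, 1 gene of the list with other TALE genes in each comparison with control, and 2 linked genes over NHD13. They turned Pbx3 to −4.51 over NHD13 and −4.46 over control, Pbx4 to 0.57, 0.85 and 0.28 in the 3 comparisons, Meis3 to −1.34 in NHD13 over control and Pknox1 to −0.059 over NHD13, since these rows then hold other genes' counts. HOX genes called over NHD13 were 2 with DESeq2, 2 without a filter, 0 with only the groups compared, 3 at a threshold of 0.05 and 0 to 1 with a library left out. In NHD13 over control they were 13, 3 (only the groups compared), 11 (threshold of 0.05) and 3 to 8 (a library left out), and in labelled NHD13/MSI2 over control 7 to 13 with a library left out. Linked genes over NHD13 were 2 with DESeq2, 0 with only the groups compared, 2 at 0.05 and 1 to 2 with a library left out. Over control they were 5 with DESeq2, 5 at 0.05 and 1 to 4, and in NHD13 over control 0 with only the groups compared and 0 to 2 with a library left out. Without NHD13/MSI2 replicate 4 and control replicate 2 together, an alternative chosen after seeing the data, HOX genes called were 0 over NHD13 and 7 over control, linked genes were 1 over control and 1 in NHD13 over control, and Pknox1 turned to −0.038 over NHD13. The cause of these moves was not tested, apart from the smaller number of libraries. Leaving out NHD13/MSI2 replicate 1 or 2 gave 0 HOX genes over NHD13, control replicate 1 gave 7 over control, and control replicates 1, 2 and 3 gave 3, 4 and 4 in NHD13 over control. Leaving out any control or NHD13/MSI2 replicate 1 or 2 gave 1 linked gene over control, leaving out either NHD13 library gave 2 over NHD13, and leaving out any control, either NHD13 library or NHD13/MSI2 replicate 3 gave 0 in NHD13 over control, against 1 without NHD13/MSI2 replicate 1 or 2.

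Uncalled values changed sign when a library was left out. Without NHD13 replicate 1, Meis3 turned to 3.53 over NHD13 (range −5.23 to 3.53 with a library left out) and −7.12 in NHD13 over control (−7.12 to 1.63), and Pbx3 to −0.022 over NHD13 (−0.022 to 0.32). Both of these Meis3 values rest on the 0 counts of NHD13 replicate 2, so their size is not a measured fold. Without NHD13 replicate 2, Pbx4 turned to 0.091 (−0.22 to 0.091) and Pknox1 to −0.051 (−0.051 to 0.21). Pbx4 turned to 0.050 without NHD13/MSI2 replicate 2, and Pknox1 to −0.040 without NHD13/MSI2 replicate 4. The replicate numbers did not pair the libraries (correlations of deviations of −0.0716 to 0.194 between libraries of the same number). The replicate block gave 4 HOX genes in NHD13 over control and −0.012 for Pknox1 over NHD13, and it changed no call of the 7 genes. Depth limits Meis2 and Meis3, with 0 to 57 counts in a library.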
